A study of Mus musculus with 6 samples.

Results

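Transcripts of 8 ETS transcription factor genes (Etv1, Etv4, Etv5, Ets1, Ets2, Elk1, Elk3 and Elk4) and of the repressor gene Cic were examined in embryonic nasal cartilage. These 9 genes were chosen by name as nuclear effectors of the ERK kinases, and all 9 were found by Ensembl identifier among the 38924 genes of the count tables. Cartilage of the anterior nasal septum, the midline cartilage of the nose, had been cut by laser from frozen head sections of C57BL/6 mouse embryos at embryonic day 14.5. The Apert group held 3 mice labelled Fgfr2+/S252W; EIIA-Cre, which carry on 1 allele a substitution in fibroblast growth factor receptor 2 that models human Apert syndrome. The WT group held 3 mice labelled WT, with no Cre named, and whether the groups were littermates is not given in the sources used here. EIIa-Cre acts in the early embryo, so the allele is switched on throughout the animal and not in cartilage alone, and such recombination can be mosaic. The question put to the 9 genes was whether their transcripts differed between Apert and WT cartilage.

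FGF receptors signal through RAS, RAF and MEK to the ERK kinases, which act on transcription largely by phosphorylating factors that are already present. ETS factors share a DNA-binding domain that reads the core GGAA. Etv1, Etv4 and Etv5 form the PEA3 subfamily, whose own transcription is a widely used readout of FGF signalling in limb, lung and face. Ets1 and Ets2 are activated by ERK phosphorylation, and Elk1, Elk3 and Elk4 are ternary complex factors that bind immediate early gene promoters with serum response factor. Capicua, the product of Cic, represses Etv1, Etv4, Etv5 and other ERK targets until ERK phosphorylation relieves that repression. Transcript levels do not report phosphorylation of any of these proteins.

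Total counts ran from 6760510 to 10834744 per library, and 1 count was worth 0.0869 to 0.162 CPM, here counts per library total after trimmed-mean scaling. The cartilage label held, since the type II collagen gene Col2a1 lay between 16378 and 18236 CPM in the Apert libraries and between 16689 and 24607 CPM in the WT libraries. Markers of endothelial, leukocyte, erythroid, muscle, epithelial and neuronal cells were present at low sums. Markers of glia and of perichondrium, the sheath of cartilage, were not low. They summed to 281 to 444 CPM and 2318 to 3548 CPM over the 6 libraries, and are compared below. The 12 endothelial markers summed to between 29.0 and 32.7 CPM in Apert and between 19.5 and 35.9 CPM in WT libraries. The 12 leukocyte markers summed to between 8.05 and 20.7 CPM in Apert and between 10.3 and 15.6 CPM in WT libraries. The 10 erythroid markers summed to between 123 and 144 CPM in Apert and between 88.9 and 152 CPM in WT libraries. The 10 muscle markers summed to between 33.6 and 39.2 CPM in Apert and between 22.0 and 31.8 CPM in WT libraries, without overlap. Most of this came from Neb, a giant thin-filament gene, at 26.6, 31.7 and 28.6 CPM in Apert replicates 1 to 3, against 16.9, 22.9 and 21.2 CPM in WT replicates 1 to 3, while 4 of the 10, among them Myod1 and Myog, had no count in any of the 6 libraries. The 10 epithelial markers summed to at most 3.002 CPM in Apert and 1.64 CPM in WT libraries. The 10 neuronal markers summed to between 7.26 and 13.9 CPM in Apert and between 4.61 and 13.5 CPM in WT libraries. The mitochondrial genome took 37.1% ± 3.06 of counts in Apert and 29.6% ± 0.756 in WT libraries (SD, n = 3 each; two-sided exact permutation test, p = 0.1, the smallest this design can give). Fgfr2 itself lay at 521 ± 59.1 CPM in Apert and 632 ± 61.9 CPM in WT cartilage (SD, n = 3 each). Its log2 fold change of -0.28 missed the threshold (adjusted p = 0.461 by edgeR), and a substitution leaves the counted exons in place, so this does not check the labels.

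None of the 8 members that could be tested passed a genome-wide adjusted p of 0.05. Etv1 and Etv5 had higher levels in Apert cartilage, by 1.45-fold and 1.38-fold, and each lay higher in every Apert library than in any WT library. Cic and Ets2 had lower mean levels, by log2 fold changes of -0.54 and -0.53, with overlapping libraries. Elk1, Elk3, Elk4 and Ets1 differed by less, and Etv4 was close to undetected. Over all genes, 60 of 13333 passed in the edgeR quasi-likelihood test, or 0.45% (0.398% higher and 0.0525% lower in Apert). At an unadjusted p under 0.05, 3 of the 8 tested members passed, beside 11.4% of all tested genes. Of these, Etv1 and Etv5 were higher and Cic lower, beside 6.35% of all tested genes higher and 5.01% lower. After correction for GC content, the unadjusted p was 0.121 for Etv1, 0.00291 for Etv5 and 0.384 for Cic (edgeR quasi-likelihood). Of the members, Etv5 alone then stayed under 0.05. Over all genes, 996 of 13333 were then under 0.05, against 1515 before. DESeq2 and limma-voom also called 0 members at the adjusted threshold. Of the 8, 3 had positive and 5 negative log2 fold changes, with a median of -0.19, beside a median of 0.01 over all tested genes.

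**Figure D1:**
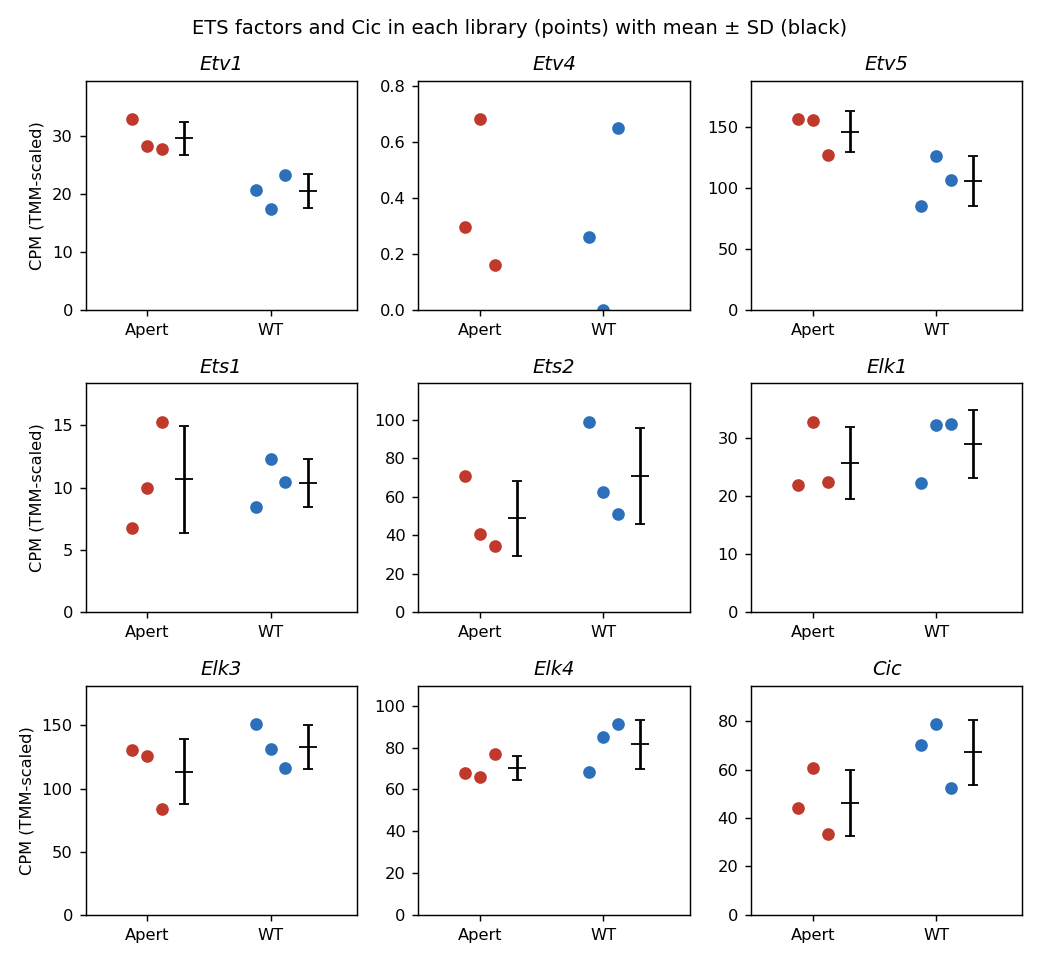
TMM-scaled CPM of each of the 9 genes (vertical axis, from 0) in 3 Apert (red) and 3 WT (blue) libraries, with mean ± SD in black except for Etv4, which was below the expression filter. Etv1 and Etv5 are the genes whose Apert libraries all lie above the WT libraries, for Etv5 by 126.7 against 126.1 CPM.

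Etv5, an ETS activator that FGF signals induce in many embryonic tissues, was the more abundant PEA3 gene. It had 156, 156 and 126.7 CPM in Apert replicates 1 to 3, against 85.3, 126.1 and 106 CPM in WT replicates 1 to 3. Apert replicates 1 and 2 stood clear of all WT libraries, while Apert replicate 3 and WT replicate 2 were almost level. Means were 146 ± 17.0 CPM in Apert and 106 ± 20.4 CPM in WT (SD, n = 3 each). On the log2 scale this was a difference of 0.47, with a standard error of 0.16 and a 95% interval of 0.12 to 0.81 (edgeR quasi-likelihood, adjusted p = 0.258). It kept its sign in all 18 alternative analyses and ran from 0.33 (without WT replicate 1) to 0.61 (without WT replicate 2) when libraries were left out singly. Etv5 spans chromosome 16 from 22381309 to 22439719 on the minus strand (mm10, from the count files) and shares no exon with another gene.

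Etv1, the PEA3 factor also known as ER81, had 32.9, 28.2 and 27.8 CPM in Apert replicates 1 to 3, against 20.8, 17.4 and 23.2 CPM in WT replicates 1 to 3. Every Apert library lay above every WT library, with a gap between 27.8 and 23.2 CPM. Means were 29.6 ± 2.83 CPM in Apert and 20.5 ± 2.93 CPM in WT (SD, n = 3 each). Apert over WT, the log2 fold change of Etv1 was 0.54 (standard error 0.20, 95% interval 0.11 to 0.97; edgeR quasi-likelihood, adjusted p = 0.320). Etv1 and Etv5 were the 2 of 8 tested members whose groups did not overlap, both higher in Apert and none lower. For Etv5 the gap was only 126.7 against 126.1 CPM. With DESeq2 size factors or with library totals alone, 1 member was higher without overlap. Among all tested genes 16.6% did not overlap, 8.92% higher and 7.7% lower in Apert. After correction for GC content Etv1 stood at 0.32 and Etv5 at 0.56 (adjusted p = 0.770 and 0.274).

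Etv4, also called PEA3, had raw counts of 3, 5 and 1 in Apert replicates 1 to 3, against 3, 0 and 6 in WT replicates 1 to 3. These counts are at or near the floor of 3 counts per library, which is 0.261 to 0.487 CPM, and no fold is given. In bulk tissue of this kind, fewer cells that express a gene and less RNA per cell cannot be told apart, for Etv4 or for any gene below.

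Lists for other cell states and cell types were compared between the same libraries. All 16 genes of a cell cycle list were tested. Of these, 11 were called higher in Apert, beside 0.398% of all tested genes (edgeR quasi-likelihood, adjusted p under 0.05). The summed level of the list was 2779 to 3438 CPM in Apert and 1229 to 1809 CPM in WT libraries. Of 12 perichondrium genes, which mark the fibrous sheath of cartilage, 11 were tested and 2 were called higher. This list summed to 3257 to 3548 CPM in Apert and 2318 to 2680 CPM in WT libraries. Col1a2 was its most abundant gene, with means of 1349 CPM in Apert and 1198 CPM in WT and a log2 fold change of 0.17. Of the 11 tested, 9 had positive and 2 negative log2 fold changes. Dcn, a defining gene of the list and 1 of these 2, had means of 1.67 CPM in Apert and 1.94 CPM in WT. After GC correction, fewer genes were called higher over all tested genes than the 11 of the cell cycle list alone. Not all calls of these lists were therefore kept under that correction. Of 10 glial markers, 9 were tested and 0 passed by edgeR or limma-voom, while 2 were lower at an unadjusted p under 0.05 in edgeR. DESeq2 called 1 of them lower, Sox10, a transcription factor of neural crest and glia. The glial markers summed to 281 to 334 CPM in Apert and 373 to 444 CPM in WT libraries, with no overlap. Of 15 cartilage genes, all tested, 0 passed by edgeR or limma-voom, while 1 was higher and 3 lower at an unadjusted p under 0.05 in edgeR. Sox9, the master factor of chondrocytes, was called lower by DESeq2 and by limma-voom with quality weights. The part of these lists, of the muscle markers and of the mitochondrial share, in the Etv1 and Etv5 values was not tested.

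DNA before a start site of Etv5 is shown because Capicua is known to read octamers, among them TGAATGAA, TGAATGGA, TCAATGAA and TCAATGGA. Only these 4 forms were counted as octamers here, and other forms that Capicua may read were not. RefSeq (GRCm38.p6) start sites gave 12 windows of 250 bases before the start for 7 of the 9 genes, and none was listed for Ets1 or Etv4. None of the 12 held any of the 4 octamers on either strand, beside 3.19% of all 32851 windows. A related sequence, TGAATGGG, differs from TGAATGGA by its last letter, and whether Capicua reads it was not tested. Of the 2 Etv5 starts, the window of the outer one, at chr16:22439571-22439820, held 0 copies. The window of the other start, at chr16:22438369-22438618 on the minus strand, lies within the span of the gene given above. It held 3 copies counting both strands (capitals, with CCCATTCA as the complement).
Etv5: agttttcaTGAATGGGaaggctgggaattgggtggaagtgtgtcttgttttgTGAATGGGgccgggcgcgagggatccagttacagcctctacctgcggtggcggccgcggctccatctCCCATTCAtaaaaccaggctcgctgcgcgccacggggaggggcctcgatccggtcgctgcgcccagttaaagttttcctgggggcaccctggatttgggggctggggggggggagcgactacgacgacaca
At least 1 copy of TGAATGGG was found in 0.931% of all windows, and among the 32851 windows this one alone held 3. It was searched for after the sequence had been read, and a match is a description of letters, not of binding. Windows of 3 ERK feedback genes, out of 10 windows of this list, held 1 of the 4 octamers (capitals). They are the sprouty gene Spry2, the sprouty-related gene Spred3 and the ERK phosphatase gene Dusp6, at chr14:105896840-105896899 and chr7:29168648-29168683 on the minus strand and chr10:99263181-99263230 on the plus strand.
Spry2: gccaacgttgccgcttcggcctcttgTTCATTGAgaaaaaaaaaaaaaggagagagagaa
Spred3: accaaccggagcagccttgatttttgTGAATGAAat
Dusp6: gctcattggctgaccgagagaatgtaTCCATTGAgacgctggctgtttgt

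Cic had 44.1, 60.7 and 33.5 CPM in Apert replicates 1 to 3, against 70.0, 78.8 and 52.4 CPM in WT replicates 1 to 3. Apert replicates 1 and 3 lay below all WT libraries, and Apert replicate 2 lay above WT replicate 3. Means were 46.1 ± 13.7 CPM in Apert and 67.1 ± 13.4 CPM in WT (SD, n = 3 each). For Cic the log2 fold change came to -0.54 (standard error 0.21, 95% interval -0.99 to -0.09; edgeR quasi-likelihood, adjusted p = 0.336). At 61.6% GC, its longest transcript was the richest in GC of the 8 tested members, and that of Etv1 was the poorest at 39.8%. After correction for GC content, Cic stood at -0.17 with a standard error of 0.19 (edgeR quasi-likelihood, adjusted p = 0.905). Without 1 library at a time it ran from -0.79 (without Apert replicate 2) to -0.37 (without Apert replicate 3). Cic lies on the plus strand of chromosome 7 from 25267704 to 25294159 (mm10), 105 Mb from Fgfr2 on the same chromosome, and shares no exon with another gene.

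**Figure D2:**
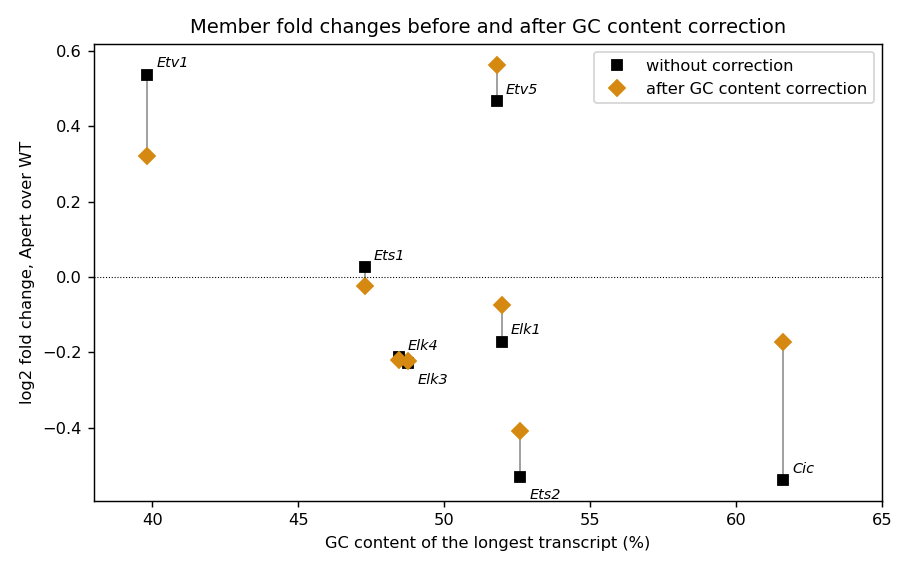
Log2 fold change of the 8 tested members, Apert over WT (vertical axis), against GC content of the longest transcript in percent (horizontal axis), before (black squares) and after (orange diamonds) correction for GC content. Cic, at 61.6% GC, goes to -0.17 after correction, Etv1, at 39.8% GC, to 0.32, and Etv5 to 0.56.

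Within single libraries, which removes the scaling between libraries, there were 3.55, 2.57 and 3.79 Etv5 counts per Cic count in Apert replicates 1 to 3. The same ratio was 1.22, 1.60 and 2.03 in WT replicates 1 to 3. For Etv1, counts per Cic count were 0.745, 0.465 and 0.830 in Apert replicates and 0.297, 0.221 and 0.443 in WT replicates. Both ratios were higher in every Apert library than in any WT library. They were formed from members whose differences were already known, so they are given without a test, and a ratio of genes that differ in GC content carries the GC shift described for Cic.

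The partner of Capicua encoded by Atxn1l stabilises it as a repressor. Atxn1l had 55.4, 53.5 and 42.1 CPM in Apert replicates 1 to 3, against 65.8, 76.7 and 58.5 CPM in WT replicates 1 to 3, with no overlap. This was a log2 fold change of -0.41, standard error 0.17 (edgeR quasi-likelihood, adjusted p = 0.384). The related gene Atxn1 was at -0.13. Of 9 partner genes of Capicua and of the ETS factors, all tested, 0 passed at the adjusted p by edgeR, DESeq2 or limma-voom. Of the 9, 1, Atxn1l, had an unadjusted p under 0.05 in edgeR, beside 11.4% of all tested genes. Atxn1l was also the 1 gene of the 9 without overlap, beside 16.6% of all tested genes. The GABP beta subunit genes Gabpb1 and Gabpb2 were at 0.27 and 0.21, the serum response factor gene Srf at -0.34 and its coactivator gene Mrtfa at -0.34 (edgeR quasi-likelihood, adjusted p = 0.540, 0.646, 0.702 and 0.670). After GC correction Mrtfa stood at -0.05, Gabpb1 at 0.19, Gabpb2 at 0.13 and Atxn1l at -0.36.

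Ets2, an activator with a pointed domain that binds ERK, had 71.1, 40.7 and 34.8 CPM in Apert replicates 1 to 3, against 99.1, 62.5 and 51.2 CPM in WT replicates 1 to 3. Replicate 1 was the highest library of each group, and Apert replicate 1 lay above WT replicates 2 and 3. Means were 48.8 ± 19.5 CPM in Apert and 71.0 ± 25.1 CPM in WT (SD, n = 3 each). For Ets2 the log2 fold change came to -0.53 (standard error 0.26, 95% interval -1.07 to 0.01; edgeR quasi-likelihood, adjusted p = 0.449). Without Apert replicate 1 it was -0.94 and passed (adjusted p = 0.0432), and without WT replicate 1 it was -0.21 (adjusted p = 0.881), so single libraries decide this value.

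Ets1, its close relative, was weak, with 6.76, 9.96 and 15.3 CPM in Apert replicates 1 to 3 and 8.43, 12.3 and 10.4 CPM in WT replicates 1 to 3. The Apert libraries lay on both sides of the WT libraries. Its log2 fold change of 0.03 had a 95% interval from -0.64 to 0.69, and differences within that interval cannot be told from none here. Its libraries held 68 to 127 counts. It was -0.33 without Apert replicate 3 and 0.25 without Apert replicate 1.

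The 3 ternary complex factor genes overlapped between genotypes. Elk3, which encodes the factor Net, had 130.3, 126 and 83.8 CPM in Apert replicates 1 to 3, against 151, 131 and 116 CPM in WT replicates 1 to 3. Apert replicate 3 was the only one below all WT libraries. Elk3 had a log2 fold change of -0.23 (95% interval -0.59 to 0.14; edgeR quasi-likelihood, adjusted p = 0.668), and -0.06 without Apert replicate 3. Elk4, encoding SAP-1, had 67.9, 66.2 and 77.0 CPM in Apert replicates 1 to 3, against 68.6, 84.9 and 91.3 CPM in WT replicates 1 to 3. WT replicate 1 lay within the Apert range, and the log2 fold change was -0.21 (95% interval -0.55 to 0.13; edgeR quasi-likelihood, adjusted p = 0.665). Elk1 had 22.0, 32.9 and 22.4 CPM in Apert replicates 1 to 3, against 22.2, 32.4 and 32.4 CPM in WT replicates 1 to 3. Libraries at either end of this range occurred in both genotypes, with a log2 fold change of -0.17 (95% interval -0.64 to 0.30; edgeR quasi-likelihood, adjusted p = 0.825). Elk1 shares 1.41% of its exon bases with Uxt and Elk4 shares 1.53% with Mfsd4a, and fragments over these bases are uncertain.

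**Figure D3:**
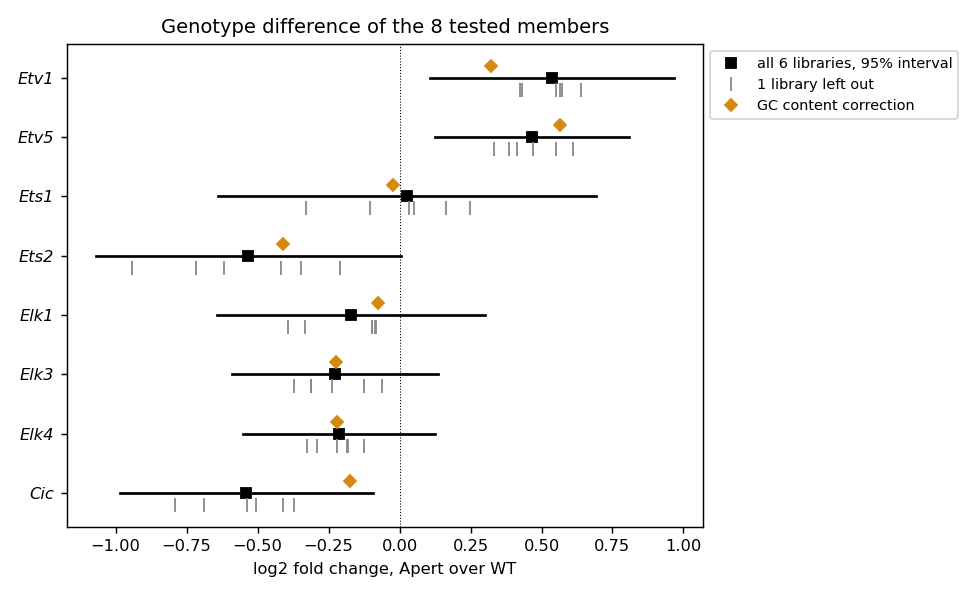
Log2 fold change, Apert over WT, of the 8 tested members with 95% intervals (black), with each library left out in turn (grey ticks) and after correction for GC content (orange). Intervals of Etv1, Etv5 and Cic exclude 0 before adjustment over all genes, and after GC correction Cic lies at -0.17.

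On a scale of CPM per kilobase of exon (RPKM), Etv5 and Elk3 had the highest means of the members in both groups. In Apert cartilage Etv5 was first at 35.7 ± 4.14 RPKM and Elk3 second at 24.9 ± 5.63 RPKM (SD, n = 3), and Etv5 was higher in 3 of 3 libraries without overlap. In WT cartilage Elk3 at 29.2 ± 3.82 RPKM and Etv5 at 25.8 ± 4.97 RPKM overlapped (SD, n = 3), and Elk3 was higher in 1 of 3 libraries, replicate 1. Elk4 and Ets2 followed, at 12.8 ± 1.06 and 10.4 ± 4.14 RPKM in Apert and at 14.9 ± 2.14 and 15.1 ± 5.32 RPKM in WT, and overlapped each other in both groups. In WT cartilage Ets2 also overlapped Etv5, and in WT replicate 1 Ets2 was at 21.0 and Etv5 at 20.8 RPKM. Etv1, Elk1 and Cic came next in Apert, at 5.03 ± 0.481, 4.79 ± 1.15 and 4.48 ± 1.33 RPKM, each overlapping its neighbour. In WT the order was Cic, Elk1 and Etv1, at 6.51 ± 1.30, 5.39 ± 1.09 and 3.47 ± 0.497 RPKM, and Etv1 lay below Elk1 without overlap. Ets1 at 1.26 ± 0.507 RPKM in Apert and 1.22 ± 0.227 RPKM in WT was the lowest tested member. Among all tested genes, mean RPKM placed Etv5 at percentile 93.6, Elk3 at 92.2, Cic at 58.0, Etv1 at 50.6 and Ets1 at 18.4.

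Of the other 18 ETS genes that were matched, 9 were tested. Erg, an ETS gene known from vessels and from cartilage near joints, was the most abundant ETS gene tested, with 56.8 to 96.7 RPKM over the 6 libraries. Fli1, its close relative, had 23.5 to 44.8 RPKM, in the range of Etv5 at 20.8 to 38.1 RPKM. Erg lay between 199.98 and 287 CPM in Apert and between 197 and 335 CPM in WT libraries. Of the 12 endothelial markers, 5 were detected in all 6 libraries and Eng was the highest, at 22.6 to 26.5 CPM in Apert and 12.4 to 24.9 CPM in WT libraries. The defining markers Pecam1, Cdh5 and Kdr reached at most 2.06, 0.812 and 0.812 CPM in any library. The part of vessel cells in the Erg level was not tested. None of the 9 was called over all genes or had an unadjusted p under 0.05 (edgeR quasi-likelihood; 0 called also by DESeq2 or limma-voom). Etv3, a repressor, was the 1 gene of the 9 without overlap, beside 16.6% of all tested genes. Its level was 12.5 ± 0.984 CPM in Apert and 9.67 ± 0.982 CPM in WT (SD, n = 3 each; log2 fold change 0.37, edgeR quasi-likelihood adjusted p = 0.636). On the log2 scale the difference was -0.07 for Erf, a repressor that ERK removes from the nucleus, and 0.25 for it after GC correction. It was 0.01 for Erg, -0.26 for Fli1, -0.05 for Etv6, 0.12 for Gabpa, 0.19 for Elf1, 0.08 for Elf2 and 0.08 for Elf4. When libraries were scaled by totals alone, Erg stood at -0.14 and Elf2 at -0.08, and after GC correction Gabpa stood at -0.06. With libraries left out singly, Erf, Erg, Fli1, Etv6, Gabpa, Elf2 and Elf4 each changed sign at least once. Spi1, the ETS gene of myeloid cells, had at most 4 counts in a library, and Etv2, Spib and Spic had 0 counts in all 6.

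**Figure D4:**
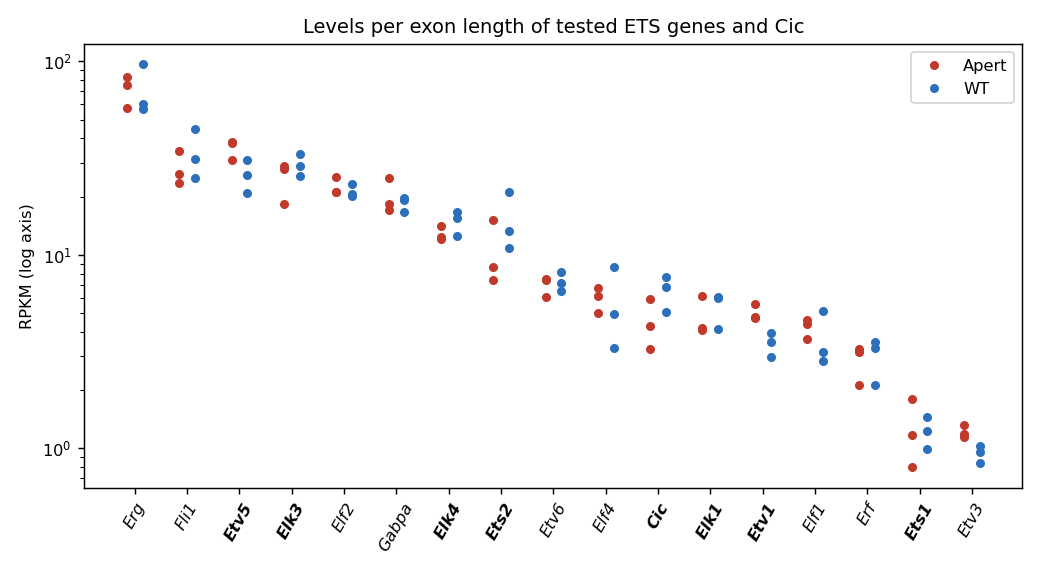
RPKM on a log axis of the 16 tested ETS genes and Cic in Apert (red, left) and WT (blue, right) libraries, with genes ordered by their mean over the 6 libraries and members in bold. Erg is the highest, Etv5 and Elk3 lie near Fli1, and Ets1 and Etv3 are the lowest.

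Genes upstream and downstream of the factors were compared by lists. Of 7 kinase genes between MEK and RSK, all tested, 0 passed an adjusted or an unadjusted p of 0.05 by edgeR, and 0 an adjusted one by DESeq2 or limma-voom. The median log2 fold change was -0.18, with ERK1 (Mapk3) at -0.23 and the RSK genes Rps6ka2 and Rps6ka1 at -0.63 and -0.39. After GC correction Mapk3 stood at 0.04, Rps6ka2 at -0.47 and Rps6ka1 at -0.11. Of 11 ERK feedback genes, 9 were tested and 0 passed over all genes by edgeR, DESeq2 or limma-voom. In edgeR 3 of the 9 had an unadjusted p under 0.05, 2 higher and 1 lower, beside 11.4% of all tested genes. Groups did not overlap for 3 of the 9, all higher in Apert, beside 8.92% of all tested genes. Spry2, which encodes a feedback inhibitor of RAS signalling, had 12.1, 15.7 and 10.9 CPM in Apert replicates 1 to 3, against 8.08, 4.83 and 7.05 CPM in WT replicates 1 to 3. It did not overlap, and it stood at 0.95 on the log2 scale, standard error 0.30 (edgeR quasi-likelihood, adjusted p = 0.206). Spred1, a related inhibitor, had 239, 178 and 224 CPM in Apert replicates 1 to 3, against 169, 141 and 166 CPM in WT replicates 1 to 3. It did not overlap either, and its log2 fold change was 0.43, or 0.24 after GC correction (adjusted p = 0.253 and 0.773). Errfi1, an inhibitor of EGF receptors, was at -0.60 and Spry4 at 0.59 (edgeR quasi-likelihood, adjusted p = 0.329 and 0.567). After GC correction the unadjusted p was 0.00814 for Spry2, 0.129 for Spred1 and 0.0190 for Errfi1 (edgeR quasi-likelihood). Without Apert replicate 1 Errfi1 was at -0.93 and passed (adjusted p = 0.0446), and without WT replicate 1 it was at -0.37 (adjusted p = 0.745). The ERK phosphatase gene Dusp6, whose upstream window held an octamer, was at -0.02.

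Immediate early genes, which ternary complex factors help to induce within minutes of a stimulus, were mostly low. Of 20 listed, 10 were tested and 0 passed over all genes by edgeR or limma-voom. Of the 10, 1, Mcl1, had an unadjusted p under 0.05 in edgeR, beside 11.4% of all tested genes. Fos had a mean of 0.217 CPM in Apert and 0.180 CPM in WT, and Egr1 of 2.68 and 2.56 CPM. Mcl1, which encodes an inhibitor of apoptosis, had 208, 237 and 192 CPM in Apert replicates 1 to 3, against 156, 157 and 136 CPM in WT replicates 1 to 3. It did not overlap and stood at 0.50 on the log2 scale, standard error 0.14 (edgeR quasi-likelihood, adjusted p = 0.143), and it passed in DESeq2 (adjusted p = 0.0366). Zfp36, which encodes an mRNA decay factor, Ier5 and Ier2 were at -0.48, -0.65 and -0.86 (adjusted p = 0.600, 0.678 and 0.680). The list median was 0.04, beside 0.01 over all tested genes.

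**Figure D5:**
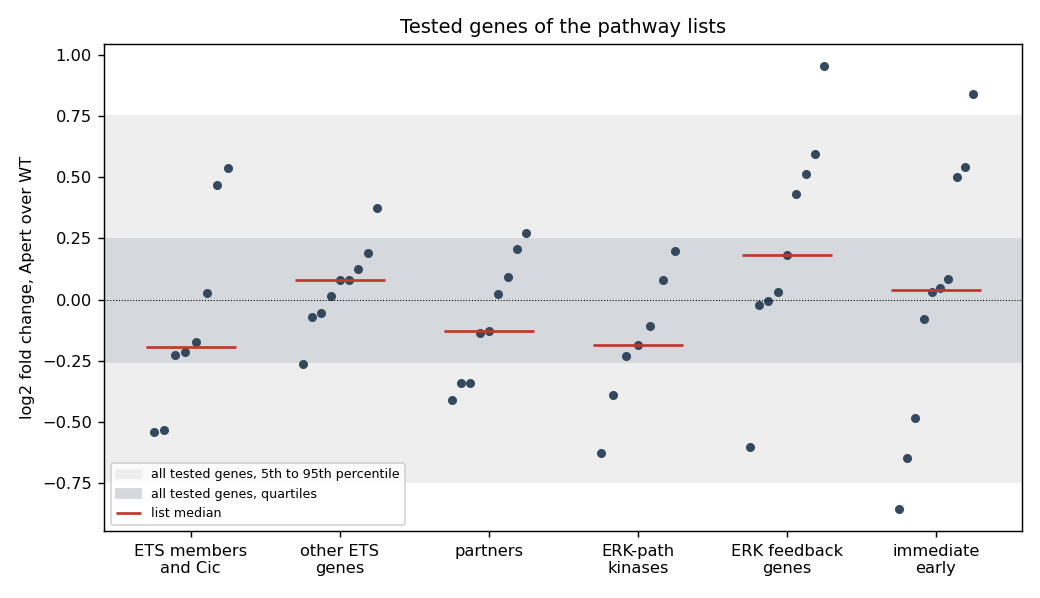
Log2 fold change, Apert over WT (vertical axis), of each tested gene (points) in 6 lists with the list median (red line), over bands for all 13333 tested genes. List medians lie between -0.19 for the ETS members and Cic and 0.18 for the ERK feedback genes, and Spry2 at 0.95 is the highest point.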

How the data were processed

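Fragment counts per gene were deposited for 6 libraries, each made from 15 ng of amplified total RNA (NuGEN Ovation, then Nextera XT) and read as 100 bp pairs, per the labels' protocols. The authors made these counts with featureCounts 1.4.4 over exons, without regard to strand, on Ensembl 75 models of GRCm38, per the file headers; cutadapt, STAR 2.5.2b and mm10 are named in the submitters' processing notes. Since the labels mention no molecular identifiers, limits from counts cover counting error alone, and amplification can shift transcripts by GC content. The series design describes separate mice.

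The analysis used edgeR 4.0.16 in R 4.3.3. After filterByExpr, 13333 genes were tested, with TMM scaling, and Apert was compared with WT by the quasi-likelihood F test with Benjamini-Hochberg adjustment over all tested genes at 0.05. CPM uses TMM-scaled totals, and RPKM divides it by the exon length of the files. Standard errors are the log2 fold change divided by the square root of F. The step was tested on simulated data. Alternatives used DESeq2 1.42.0, limma 3.58.1 (voom) and other scalings and filters. For GC correction, mgcv 1.9.3 fitted each library's log2 deviation against GC content of the longest GENCODE M21 transcript (98.9% of tested genes had a value) and the curve entered as an offset. Symbols were matched for 37607 of 38924 genes and for 191 of 192 list entries. Promoter windows came from RefSeq. Members, lists and tests were chosen with earlier results of these data known. Named genes are the 9 members, other tested ETS genes, Fgfr2 and the 4 genes with the smallest p in each pathway list. The nearest patterns to Etv5 and Cic and defining genes of cell type lists are also named. Atxn1, Srf, Dusp6, Spred3, Fos, Egr1, Neb, Eng, Myod1, Myog, Sox9, Sox10 and Col1a2 were named after their values were seen.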

Additional observations from a re-analysis of the deposited data

How the results depend on the processing

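No member passed in any analysis of all 6 libraries, under other scalings, filters or tools or at an adjusted p of 0.10. With 1 library left out, the members called lower ran from 0 to 1 (Ets2 without Apert replicate 1). Members higher without overlap were 2, and 1 with DESeq2 size factors, upper quartile scaling, no filter, thinned counts, removal of mitochondrial, globin and rRNA genes, or totals alone. With totals alone 1 was also lower without overlap. With 1 library left out these counts ran from 1 to 2 higher and from 0 to 2 lower. Ets1 changed sign in 8 of its 18 alternatives and the other tested members in 0.

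Over all genes, 53 were called higher and 7 lower. The counts were 17 and 24 with totals alone, where the median difference over all genes was -0.15 (log2). They were 154 and 93 without the filter, 161 and 62 by DESeq2, 89 and 15 by voom with quality weights, 4 and 1 after GC correction, and 105 and 24 at an adjusted p of 0.10. Thinned counts gave 12 lower. With 1 library left out they ran from 0 to 119 higher and from 0 to 110 lower; both were 0 without WT replicate 3, where 1376 genes had an unadjusted p under 0.05. Each cause was not tested beyond the construction of the alternative. The replicate block gave 128 and 44 genes and 0 members. Deviations of same-numbered libraries correlated at 0.19, 0.02 and 0.09, not every library correlated best with its own number, and the labels name no shared litter, so the numbers were not used as pairs. Depth limits Etv4, with 0 to 6 counts per library.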

Other observations

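The genes whose pattern over the 6 libraries was most like that of Etv5 were Bgn, Bard1 and Pgap1, among 7156 tested genes with a mean of at least 10 CPM. Likeness was the mean absolute difference of log2 CPM, each gene centred on its own mean: 0.056 for Bgn, 0.064 for Bard1 and 0.066 for Pgap1, beside a median of 0.31 over these genes. Bgn encodes biglycan, a small matrix proteoglycan, and had a log2 fold change of 0.44 (edgeR quasi-likelihood, adjusted p = 0.234). For Cic the nearest were Ubl7 at 0.064, Sp2 at 0.077 and Ndst2 at 0.080, beside a median of 0.40. Ndst2, which encodes a heparan sulfate sulfotransferase, had a log2 fold change of -0.51, and -0.29 after GC correction (adjusted p = 0.458 and 0.834). These neighbours were found on 6 libraries and are a description of them.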
